A study of Mus musculus with 36 samples.

Results

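The peak lists described here came from 3 Wildtype mice and 3 Mist1creERT/+EZH2[delta]SET mice (called EZH2dSET here), with 1 list for K27me3 and 1 for K4me3 from each mouse. They are 12 of the 24 peak lists of a series of 36 samples, in which 12 input samples have no list, and the other lists were not analysed here. Mice were 2 to 4 months of age at tamoxifen gavage, whole pancreas was taken 22 days later, and the Wildtype mice had received tamoxifen too. In the study, controls were C57BL/6 mice or carried Mist1creERT alone, and which of these each Wildtype mouse was is not given in the sources used here, so the genotypes may also differ by the Mist1creERT allele. Mist1creERT is an acinar-specific Cre recombinase that tamoxifen switches on, and in EZH2dSET mice it removes the Ezh2 exons that encode the SET domain, the methyltransferase part of the enzyme. The deletion was therefore made in acinar cells, while the chromatin came from every cell type of the tissue. Each of the 20807 autosomal protein-coding genes was given 1 of 4 states in each mouse, K4me3 only, K27me3 only, both marks or neither mark, according to whether a peak overlapped 3 kb on either side of any of its annotated transcription start sites (TSSs). A gene was counted as changed when it held 1 state in all 3 Wildtype mice and another in all 3 EZH2dSET mice. There were 53 such genes, 0.255% of those tested. K27me3 was gained at 36 (0.173%) and lost at 1 (0.00481%), and K4me3 was gained at 10 (0.0481%) and lost at 6 (0.0288%). The rule used these same peaks, so the states of the 53 genes are a description, and 3 mice against 3 cannot give an exact p below 0.1 for any gene.

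EZH2 is the catalytic subunit of Polycomb repressive complex 2 (PRC2), which places K27me3 on the chromatin of repressed genes, and EZH1 is its related alternative subunit. K4me3 marks the promoters of active genes and of genes held ready for activation, and it lies mostly at promoters rich in CpG dinucleotides. Promoters with both marks are called primed or bivalent and are typical of developmental regulators such as the Hox genes. Acinar cells make and secrete the digestive enzymes and form most of the pancreas.

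The lists give peak positions with no height or read count, so the depth of each library is unknown. The tissue label was checked on markers. K4me3 was at 28 of 29 acinar genes in every mouse, among them Cpa1, which encodes a carboxypeptidase, and Bhlha15, the Mist1 gene itself. Wildtype mouse 2 stood apart from the other 5. It had 16912 autosomal K4me3 peaks where the others had 23593 to 25220. Of its K27me3 peaks, 13.1% overlapped a K4me3 peak, where the others had 0.758% to 2.10%. Its K4me3 reached 14 of 19 T and B lymphocyte genes, where the other 5 mice had 3 or 4, and its K27me3 reached 7 acinar genes, where the other 5 had none. EZH2dSET mouse 2 had 17 K27me3 peaks on the X chromosome where the others had 5637 to 7367, and the X chromosome was left out for all mice. The same mouse had 28783 autosomal K27me3 peaks where the others had 15782 to 23954. Males and females of each genotype were used in the study, and the sex of each mouse is not given in the sources used here. In whole tissue, fewer cells of a type and less of a mark in each cell cannot be told apart.

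Most genes were stable. The same state was held in all 6 mice by 14054 genes, of which 9861 had K4me3 only, 3562 neither mark, 500 K27me3 only and 131 both marks. A constant state was found at 18257 genes (87.7%) in EZH2dSET tissue and at 14812 (71.2%) in Wildtype tissue. Wildtype mouse 2 had 2442 genes with both marks and 10426 with K4me3 only. Wildtype mice 1 and 3 had 331 and 564 with both marks and 12983 and 12668 with K4me3 only. The part of Wildtype mouse 2 in the lower Wildtype share was not tested. Of the changed genes, 35 went from neither mark to K27me3 only and 10 from neither mark to K4me3 only. The reverse steps were taken by 1 gene for K27me3 and 4 for K4me3. K4me3 was lost from 2 genes that had both marks, Hoxa5 and Hoxb7, and K27me3 was added at 1 gene that had K4me3, Gm10778. No gene went from K4me3 only to K27me3 only, or the other way.

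The 36 genes that gained K27me3 were spread over 14 chromosomes and 31 regions, counting genes within 200 kb as 1 region. Of the 36, 14 (38.9%) carry predicted (Gm) or clone (Rik) names, as do 8.49% of all genes tested and 20.3% of the 4077 genes with neither mark in all 3 Wildtype mice, the state from which 35 of the gains came. None was a homeobox gene, which the rule itself fixed, since Wildtype mouse 2 had K27me3 at all 111 homeobox genes tested. K27me3 covered 182, 226 and 182 Mb of the autosomes in EZH2dSET mice 1, 2 and 3 and 167, 149 and 176 Mb in Wildtype mice 1, 2 and 3. A K27me3 peak lay at the promoters of 2405 to 2706 genes per EZH2dSET mouse and of 1879, 4774 and 2289 genes in Wildtype mice 1, 2 and 3. The part of this wider coverage in the 36 gains was not tested.

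Nutm2 and Gabra5 were among the gains with the most coverage at single-copy promoters. Nutm2, of the NUT family expressed in testis, had no K27me3 in Wildtype mice and 5241, 4168 and 5974 bp of its 6001 bp window covered in EZH2dSET mice 1, 2 and 3 (5128 ± 908 bp, SD, n = 3). The nearest Wildtype peaks were 7181, 26618 and 6848 bp from its TSS, and the TSS lay inside a peak in every EZH2dSET mouse. Gabra5, the alpha 5 subunit of the GABA-A receptor, had 4725, 6305 and 3784 bp of 6689 bp covered in EZH2dSET mice (4938 ± 1274 bp, SD, n = 3) and no peak within 7117 bp in any Wildtype mouse. Both genes had most of their windows covered in each EZH2dSET mouse.

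Gpr83, a neuropeptide receptor, had 4803, 5632 and 4752 bp covered in EZH2dSET mice (5062 ± 494 bp, SD, n = 3), and its nearest Wildtype peaks were 77610, 85801 and 88781 bp away. Cntnap4, a neurexin-related adhesion protein of neurons, had 4772, 5664 and 5818 bp (5418 ± 565 bp, SD, n = 3), and its nearest Wildtype peak was 25681 bp away. At both genes the EZH2dSET values were close to each other and far from any Wildtype peak. Slc6a11, a GABA transporter, had 1944, 2715 and 5001 bp covered, and Caln1, a neuronal calcium-binding protein, had 1230, 688 and 8516 bp. Their spread between EZH2dSET mice was wide, and at Caln1 the Wildtype mice 1 and 3 had a peak 4051 and 4167 bp away, just outside the window. The Caln1 peaks of EZH2dSET mice 1 and 2 lay at different TSSs, and this gain was absent when the 5′ end alone was read.

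**Figure D1:**
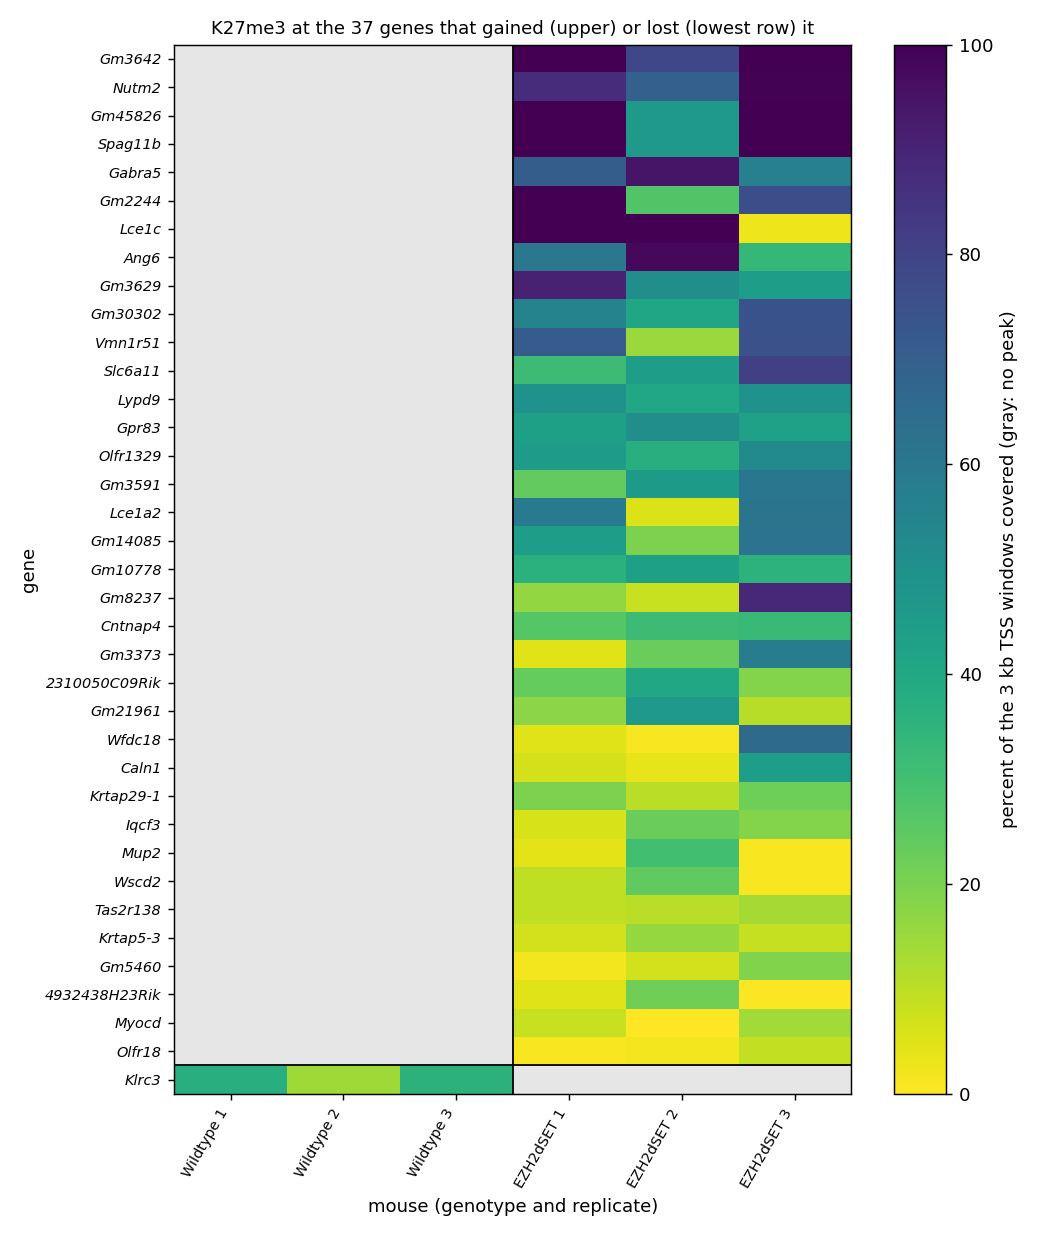
Percent of the 3 kb TSS windows covered by K27me3 at each gene that gained it (upper 36 rows) or lost it (lowest row), in each of the 6 mice; gray means no peak. The 3 Wildtype columns are gray for all 36 gains by the rule, while coverage in EZH2dSET mice runs from nearly none at Olfr18 to whole windows at Gm3642.

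Epidermal genes formed the one region with 3 changed genes. Lce1a2 and Lce1c, late cornified envelope proteins of the skin, and 2310050C09Rik lie together on chromosome 3 within the epidermal differentiation complex. Lce1c had 6001, 6001 and 152 bp covered in EZH2dSET mice, and Lce1a2 had 3561, 323 and 3682 bp. Wildtype mouse 3 had a peak 3201 bp from the Lce1a2 TSS, just outside the window, while the nearest peaks in Wildtype mice 1 and 2 were 38964 and 165171 bp away. Keratin-associated proteins of the hair shaft, Krtap5-3 and Krtap29-1, had 402 to 1322 bp covered. The keratin and Krtap family has 110 genes in the table, and these were its 2 gains (1.82%, against 0.173% of all genes). More of this family could gain, since 85 of the 110 had neither mark in all 3 Wildtype mice, against 4077 of all 20807 genes. Both gains were absent with a 1 kb window.

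Chemosensory receptors contributed 4 gains. Olfr1329 and Olfr18 were 2 of 1128 olfactory receptor genes (0.177%, close to the 0.173% of all genes), Vmn1r51 was 1 of 327 vomeronasal receptor genes (0.306%), and Tas2r138 is a bitter taste receptor. Among the 36 gains, 5.56% were olfactory and 2.78% vomeronasal receptor genes. These families made up 11.8% and 4.86% of the 4077 genes with neither mark in all 3 Wildtype mice. Vmn1r51 had 8403, 1777 and 8904 bp of 11829 bp covered in EZH2dSET mice. Olfr18 had the least coverage of all 36 genes, with 62, 107 and 571 bp, because the peaks ended 2939, 2894 and 2430 bp from its TSS. The family as a whole was variable between mice. K27me3 reached 523, 288 and 454 olfactory receptor genes in Wildtype mice 1, 2 and 3 and 426, 533 and 367 in EZH2dSET mice, and the groups overlapped.

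The remaining gains with gene names were of varied kinds. Spag11b, a defensin-like peptide of the epididymis, had 6040, 2775 and 6040 bp of 6040 bp covered. It shares its promoter with the overlapping gene Gm45826, and they count as 1 region. Ang6, of the angiogenin ribonucleases, had 3616, 5862 and 2003 bp, and Lypd9, of the Ly6 domain family, had 2916, 2399 and 2914 bp. The nearest Wildtype peaks were 7169, 3359 and 4083 bp from the Spag11b TSS, and its gain was absent with a 5 kb window. The nearest Wildtype peak was 21102 bp away for Ang6 and 16544 bp for Lypd9. Wfdc18, a whey acidic protein domain gene, Mup2, a major urinary protein, Iqcf3, a calmodulin-binding motif protein, and Wscd2, a WSC domain protein, had at least 1 EZH2dSET mouse with under 1000 bp. At Mup2, Iqcf3 and Wscd2 the peaks of EZH2dSET mice lay at different TSSs, so no single TSS gained the mark in all of them. These gains were absent when the 5′ end alone was read. Myocd, the coactivator of smooth and cardiac muscle genes, had 1986, 38 and 3324 bp of 24139 bp covered around its 6 TSSs.

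Several predicted genes on chromosome 14 had high coverage but repeated promoters. Gm3642 had 6006, 4729 and 6006 bp of 6006 bp covered in EZH2dSET mice, the largest change of the 36 as a share of the window. Its promoter matched 86 other places in the genome at 95% identity or more over at least 80% of its length. Gm3629 and Gm3591 had 96 such copies each, Gm3373 had 95 and Gm2244 had 23. Gm8237 and Gm10778 had 3, Vmn1r51 had 2 and Mup2 had 7, and the remaining 27 genes had none. Reads from near-identical copies cannot be assigned with certainty, so the state of these 9 genes is uncertain. Gm14085, Gm30302, Gm5460, Gm21961 and 4932438H23Rik complete the list and had single-copy promoters.

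The promoters of Nutm2 and Gm3642, with the largest shares of their windows covered, and of Gm10778, the one gain at a gene with K4me3, are shown as examples with few CpG dinucleotides, although other gains had many, with 46 at Slc6a11, 24 at Gpr83 and 20 at Myocd. They run from 250 bases before to 50 bases after the TSS, in mm10 (GRCm38), 5′ to 3′ on the gene's strand, with CpG in capitals. Nutm2 (chr13:50467057-50467356, + strand) had 3 CpG, Gm3642 (chr14:6840257-6840556, - strand) had 3, and Gm10778 (chr10:81661748-81662047, + strand, at the downstream one of its 2 TSSs) had 1, against 9 at its 5′ end.
Nutm2: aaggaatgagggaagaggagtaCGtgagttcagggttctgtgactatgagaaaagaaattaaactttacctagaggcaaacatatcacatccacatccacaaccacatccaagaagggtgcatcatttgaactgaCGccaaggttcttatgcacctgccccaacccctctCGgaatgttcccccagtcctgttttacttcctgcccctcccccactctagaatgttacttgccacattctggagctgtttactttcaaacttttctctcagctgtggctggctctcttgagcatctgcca
Gm3642: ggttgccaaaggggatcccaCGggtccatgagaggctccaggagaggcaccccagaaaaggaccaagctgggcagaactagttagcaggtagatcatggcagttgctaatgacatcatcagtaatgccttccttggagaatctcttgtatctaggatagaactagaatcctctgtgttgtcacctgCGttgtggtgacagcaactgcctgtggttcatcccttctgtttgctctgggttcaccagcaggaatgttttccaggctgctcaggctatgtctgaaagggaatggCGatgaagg
Gm10778: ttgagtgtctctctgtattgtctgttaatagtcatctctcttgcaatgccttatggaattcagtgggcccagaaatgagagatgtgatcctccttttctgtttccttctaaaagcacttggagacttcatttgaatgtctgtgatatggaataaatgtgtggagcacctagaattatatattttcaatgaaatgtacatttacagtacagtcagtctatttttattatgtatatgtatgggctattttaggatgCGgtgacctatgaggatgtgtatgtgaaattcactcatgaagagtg

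The median ratio of observed to expected CpG in the 1 kb around the 5′ end was 0.155 for the 36 genes, 0.177 for genes with neither mark in all 6 mice and 0.568 for all genes. Of the 36, 4 were CpG-rich (ratio above 0.6 and GC above 50%), which is 11.1%. The share was 45.7% of all genes and 2.16% of the 3562 genes with neither mark in all 6 mice. The upper quartile of the ratio was 0.469 for the 36 genes and 0.268 for those 3562. The CpG-rich gains were Gabra5 (0.837), Slc6a11 (0.760), Gm10778 (0.616) and Gm3373 (0.610). The median was 0.208 for the 500 genes with K27me3 only in all 6 mice and 0.653 for the 131 genes with both marks. Of the gains, 35 had neither mark in Wildtype mice by the rule.

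**Figure D2:**
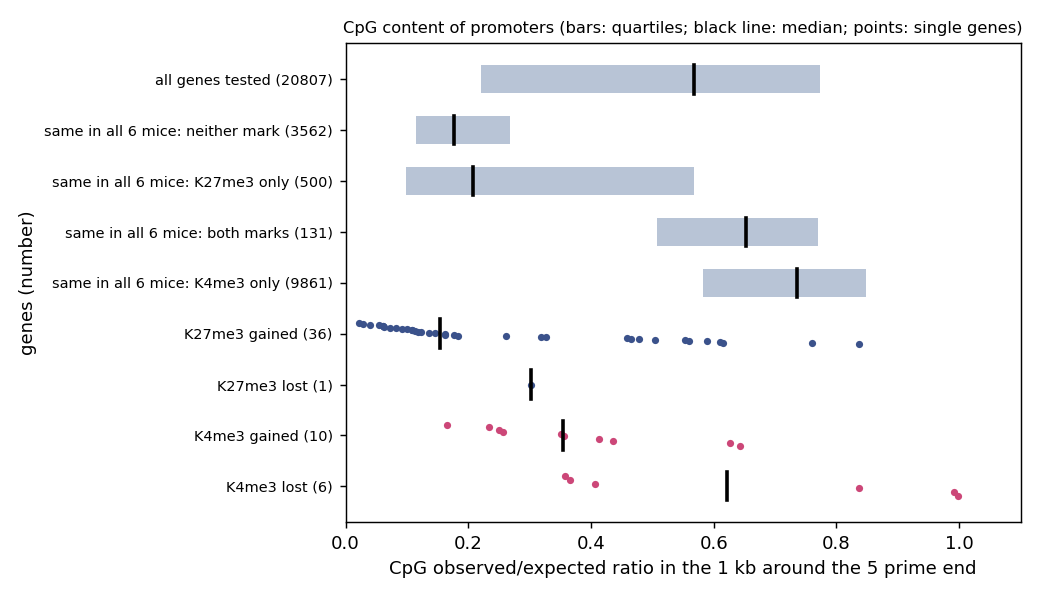
Observed over expected CpG in the 1 kb around each gene's 5 prime end, as quartiles and medians for stable states (bars) and as single genes for the changed ones (points). Most genes that gained K27me3 lie at low values near the unmarked genes (median 0.155), but some reach higher values. Hoxa5, Mn1 and Hoxb7 sit at the right among the K4me3 losses.

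The distance to the nearest Wildtype peak varied widely among the gains. In 10 of the 36 genes, at least 1 Wildtype mouse had a K27me3 peak within 1 kb beyond the window. In 19 the nearest peak was over 5 kb from the TSS in all 3 Wildtype mice, and in 9 it was over 10 kb away, namely Gpr83, Krtap29-1, Cntnap4, Wscd2, Ang6, Gm10778, Lypd9, Olfr18 and Iqcf3. The TSS lay inside a peak in all 3 EZH2dSET mice at 7 genes. The 119 peaks at these genes in EZH2dSET mice had a median width of 7230 bp (5001 to 40893 bp). The shortest width in the lists, 5001 bp, was found for 29.4% of them and for 39.5% of all K27me3 peaks of these mice.

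**Figure D3:**
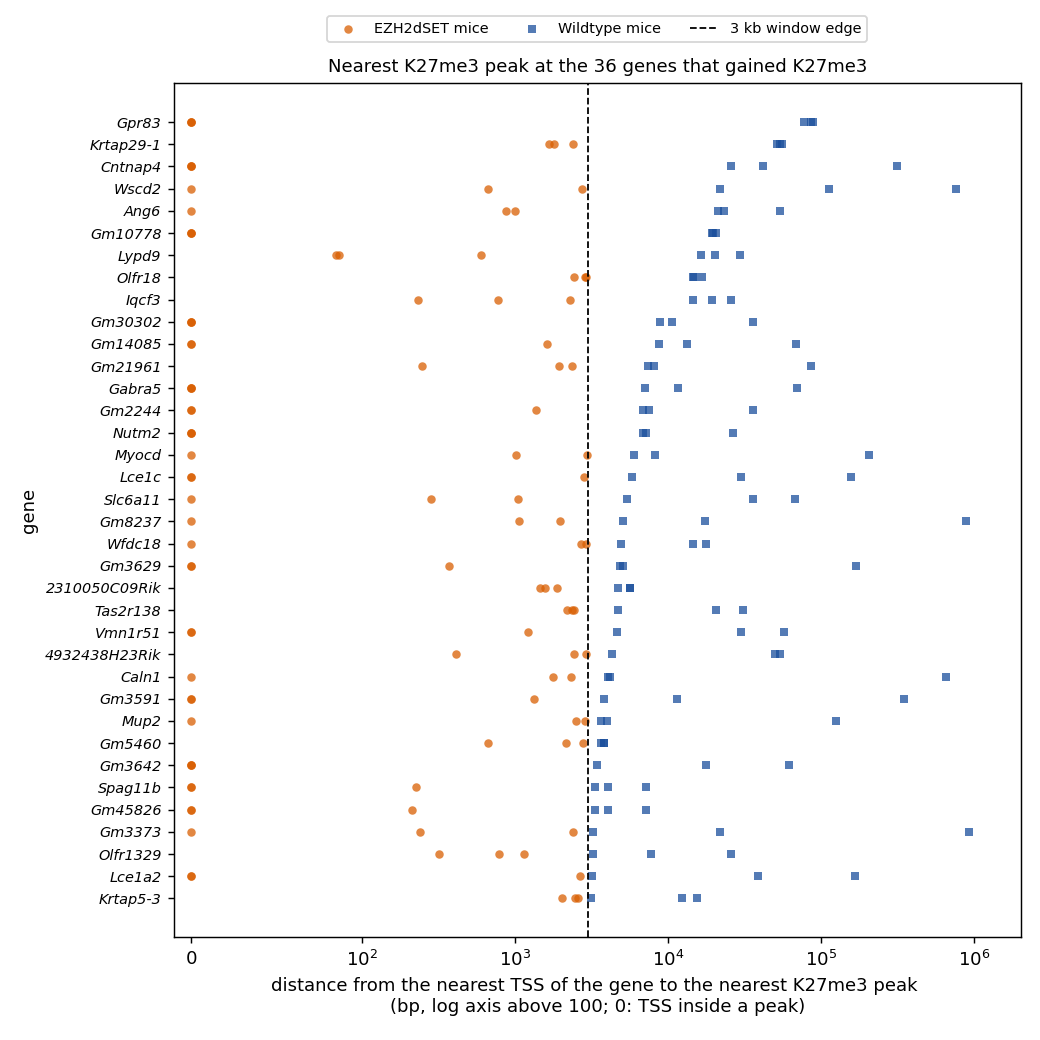
Distance from the nearest TSS of each of the 36 genes to the nearest K27me3 peak, with 1 point per mouse and the 3 kb limit dashed. Genes are ordered by their closest Wildtype peak, from 3151 bp at Krtap5-3 to 77610 bp at Gpr83, and at many genes the 3 Wildtype mice differ widely, as at Krtap5-3 with 3151, 12395 and 15497 bp.

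K27me3 was lost at 1 gene, Klrc3, which encodes the NKG2-E receptor of natural killer cells. Wildtype mice 1, 2 and 3 had 2240, 852 and 2150 bp covered, and the nearest EZH2dSET peaks were 26110, 10039 and 25381 bp away. Its promoter (chr6:129643288-129643587, - strand) held 2 CpG, and 1 near-identical copy was found elsewhere.
Klrc3: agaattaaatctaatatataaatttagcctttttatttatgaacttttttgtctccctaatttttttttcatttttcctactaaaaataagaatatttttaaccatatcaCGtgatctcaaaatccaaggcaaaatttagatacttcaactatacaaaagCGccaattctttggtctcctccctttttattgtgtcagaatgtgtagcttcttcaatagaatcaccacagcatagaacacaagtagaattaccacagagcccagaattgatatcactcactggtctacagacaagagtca

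Gm10778 was the sole gene that moved to both marks. It held K4me3 in all 6 mice, and K27me3 covered 4325, 5177 and 4226 bp of 12002 bp in EZH2dSET mice. The nearest Wildtype K27me3 peaks were 19455 to 20720 bp away. The marks lay at different TSSs of this gene and did not overlap, with K4me3 peaks over the upstream TSS (chromosome 10, position 81649059) and K27me3 peaks over the downstream one (position 81661998), so no single promoter held both, and K27me3 was not gained when the 5′ end alone was read. When the other mark was not required to be constant, 42 genes (0.202%) gained K27me3 and 1 (0.00481%) lost it. The extra 6 were Crct1, Sema3e, Gbp4, Adam12, Gm5431 and Cldn1.

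K4me3 was gained at 10 genes, each on its own and all with single-copy promoters. Slitrk6, a transmembrane protein that guides neurite growth, changed most. It had no K4me3 in Wildtype mice and 2486, 2058 and 1914 bp covered in EZH2dSET mice (2153 ± 298 bp, SD, n = 3). The nearest Wildtype peak was 136152 bp away or farther, and the peak covered the TSS in every EZH2dSET mouse. The promoter (chr14:110755100-110755399, - strand) held 4 CpG, with a ratio of 0.356 over 1 kb.
Slitrk6: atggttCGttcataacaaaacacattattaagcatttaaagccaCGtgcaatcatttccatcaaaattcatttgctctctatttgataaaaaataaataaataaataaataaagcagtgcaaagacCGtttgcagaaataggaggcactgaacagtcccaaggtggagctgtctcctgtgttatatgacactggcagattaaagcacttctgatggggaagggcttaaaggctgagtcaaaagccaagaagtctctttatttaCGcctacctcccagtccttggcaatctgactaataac

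The other gains had less coverage. Kcnj3, the GIRK1 potassium channel, had 1663, 501 and 644 bp covered in EZH2dSET mice, and Kcnh7, a voltage-gated potassium channel, had 761, 501 and 501 bp. They were 2 of 92 potassium channel genes tested (2.17%, against 0.0481% of all genes). Lcat, the enzyme that esterifies cholesterol on high-density lipoprotein, had 989, 759 and 501 bp (750 ± 244 bp, SD, n = 3), and Wildtype peaks lay 4468 to 4798 bp away. Slc45a2, a melanosome transporter of pigment cells, had 628, 762 and 630 bp. Lrrn4cl had 958, 790 and 501 bp. Capn3, the muscle calpain, and Efcab5, an EF-hand protein, had 501 to 783 bp. At these genes no value passed 1000 bp except in EZH2dSET mouse 1 at Kcnj3, while the shortest K4me3 peak in the lists is 501 bp.

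The remaining K4me3 gains lay at the limit of the window. Msh4, which acts in meiotic recombination, had 215, 32 and 329 bp covered, and Wildtype peaks were 3263 to 4843 bp from its TSS. Vmn2r11, a vomeronasal receptor, had 366, 404 and 393 bp, and 2 Wildtype mice had a peak 3127 and 3163 bp away. The 30 K4me3 peaks at the 10 genes had a median width of 761.5 bp, against 1386 bp for all K4me3 peaks of these mice. Without the demand on K27me3, 15 genes (0.0721%) gained K4me3.

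**Figure D4:**
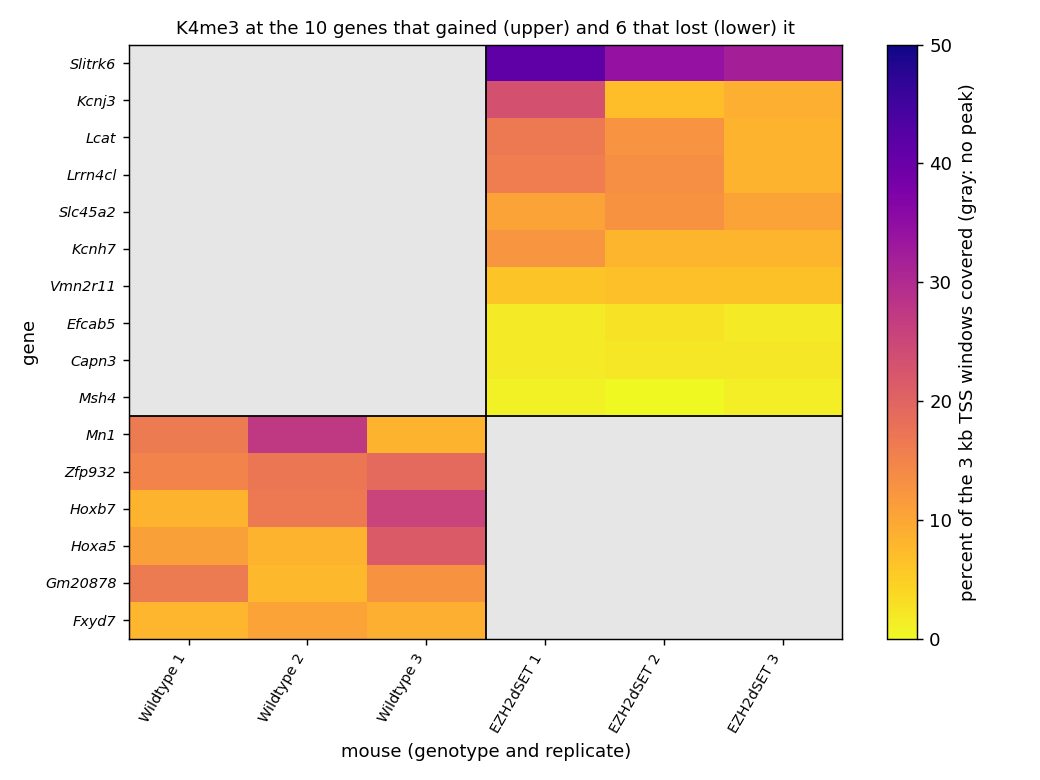
Percent of the 3 kb TSS windows covered by K4me3 at the 10 genes that gained it (upper rows) and the 6 that lost it (lower rows), in each of the 6 mice; gray means no peak. Slitrk6 had the widest coverage of the gains, and at every gene the 3 mice of one genotype are gray by the rule.

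K4me3 was lost at 6 genes. Zfp932, a zinc-finger protein, had 1843, 2085 and 2332 bp covered in Wildtype mice (2087 ± 245 bp, SD, n = 3) with the TSS inside the peak. The nearest peaks in EZH2dSET mice were 16467, 50685 and 16421 bp away. Its promoter (chr5:109996271-109996570, + strand) held 9 CpG and had 2 near-identical copies elsewhere, so the assignment of reads is uncertain.
Zfp932: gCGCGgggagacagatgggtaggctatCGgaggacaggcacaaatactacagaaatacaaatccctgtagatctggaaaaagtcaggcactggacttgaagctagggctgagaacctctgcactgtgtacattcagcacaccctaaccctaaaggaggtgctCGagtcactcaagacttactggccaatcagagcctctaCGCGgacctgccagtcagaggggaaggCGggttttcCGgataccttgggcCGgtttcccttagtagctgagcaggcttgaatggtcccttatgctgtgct

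Mn1, a transcriptional coregulator, had 990, 1652 and 501 bp covered in Wildtype mice, and the EZH2dSET peaks were 22644 bp away or farther. Fxyd7, a brain regulator of the sodium pump, had 484, 636 and 538 bp, but peaks ended 3169, 3061 and 3082 bp from its TSS in EZH2dSET mice, just outside the window. Gm20878 had 1052, 501 and 827 bp and 8 near-identical promoter copies. Mn1 was CpG-rich (0.992), while Fxyd7 (0.366) and Zfp932 (0.357) were not. Without the demand on K27me3, 8 genes (0.0384%) lost K4me3, and the extra ones were Map6 and Isl2.

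Hoxa5 and Hoxb7, homeobox factors that set position along the body axis, lost K4me3 and kept K27me3. Neither gene met the rule for this change of state with a 1 kb window, with K4me3 peaks of at least 1 kb or with equal peak numbers. At Hoxa5 the K4me3 peaks of all 3 Wildtype mice lay within 334 bp of the TSS, inside the 1 kb window, but the K27me3 peak of Wildtype mouse 1 did not reach it. At Hoxb7 the K4me3 peak of Wildtype mouse 1 lay 1653 bp from the TSS. In that mouse the K4me3 and K27me3 peaks did not overlap at either gene. Hoxa5 had 650, 501 and 1296 bp of K4me3 in Wildtype mice (816 ± 423 bp, SD, n = 3), and the nearest EZH2dSET peaks were 16742, 7236 and 12063 bp away. Hoxb7 had 675, 1335 and 2059 bp in Wildtype mice (1356 ± 692 bp, SD, n = 3), and the EZH2dSET peaks were 22308, 10256 and 5647 bp away. K27me3 over the Hoxa5 window was 774, 6001 and 6001 bp in Wildtype mice and 6001 bp in each EZH2dSET mouse. Over the Hoxb7 window it was 5738, 8093 and 6325 bp in Wildtype mice and 6695, 5597 and 6875 bp in EZH2dSET mice. The K27me3 values at Hoxb7 overlapped between genotypes. The promoter of Hoxa5 (chr6:52204538-52204837, - strand), in contrast to those whose sequences are printed above, was dense in CpG and held 29. Over 1 kb the ratio was 0.998 at Hoxa5 and 0.836 at Hoxb7.
Hoxa5: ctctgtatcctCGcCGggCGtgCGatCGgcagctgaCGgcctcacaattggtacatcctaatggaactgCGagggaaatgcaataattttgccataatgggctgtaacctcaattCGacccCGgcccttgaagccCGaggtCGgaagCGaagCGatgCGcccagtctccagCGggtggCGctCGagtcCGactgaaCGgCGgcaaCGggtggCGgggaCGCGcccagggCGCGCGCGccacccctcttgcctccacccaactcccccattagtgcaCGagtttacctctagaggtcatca

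K4me3 was also at fewer genes across the Hox clusters as a whole, a count made after these 2 genes were known. Of 39 Hox genes, Wildtype mice 1, 2 and 3 had K4me3 at 14, 16 and 17, and EZH2dSET mice at 3, 9 and 8. The groups did not overlap. K4me3 was in more Wildtype than EZH2dSET mice at 15 Hox genes, in more EZH2dSET mice at 0, in as many of each at 6 and in no mouse at 18. The tally includes Hoxa5 and Hoxb7, which the rule fixed, and without them it was 13 to 0, with 12, 14 and 15 genes in Wildtype mice and 3, 9 and 8 in EZH2dSET mice. Neighboring Hox genes can share a K4me3 peak, so these genes are not independent counts. Peaks at Hoxa5 or Hoxb7 may be counted again at their neighbors. Over all genes K4me3 was in more Wildtype mice at 622 (2.99%) and in more EZH2dSET mice at 900 (4.33%), a direction that turned without Wildtype mouse 2, when a larger share of Wildtype mice had it at 479 (2.30%) and of EZH2dSET mice at 433 (2.08%). Without that mouse the tally over the 37 other Hox genes was 13 to 2. K27me3 was at 34, 39 and 39 Hox genes in Wildtype mice and at 39 in each EZH2dSET mouse. The 3 genes with both marks in all 6 mice were Hoxa7, Hoxc6 and Hoxd12, and 17 had K27me3 only in all 6.

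Markers of other cell types were read beside this result. K4me3 was at 6, 6 and 7 of 16 fibroblast and stellate genes in Wildtype mice and at 6, 4 and 8 in EZH2dSET mice. It was at 3, 4 and 4 of 15 endothelial genes in Wildtype mice and at 4, 5 and 3 in EZH2dSET mice. Both lists overlapped between genotypes. The part of other cell types in the Hox values was not tested further.

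**Figure D5:**
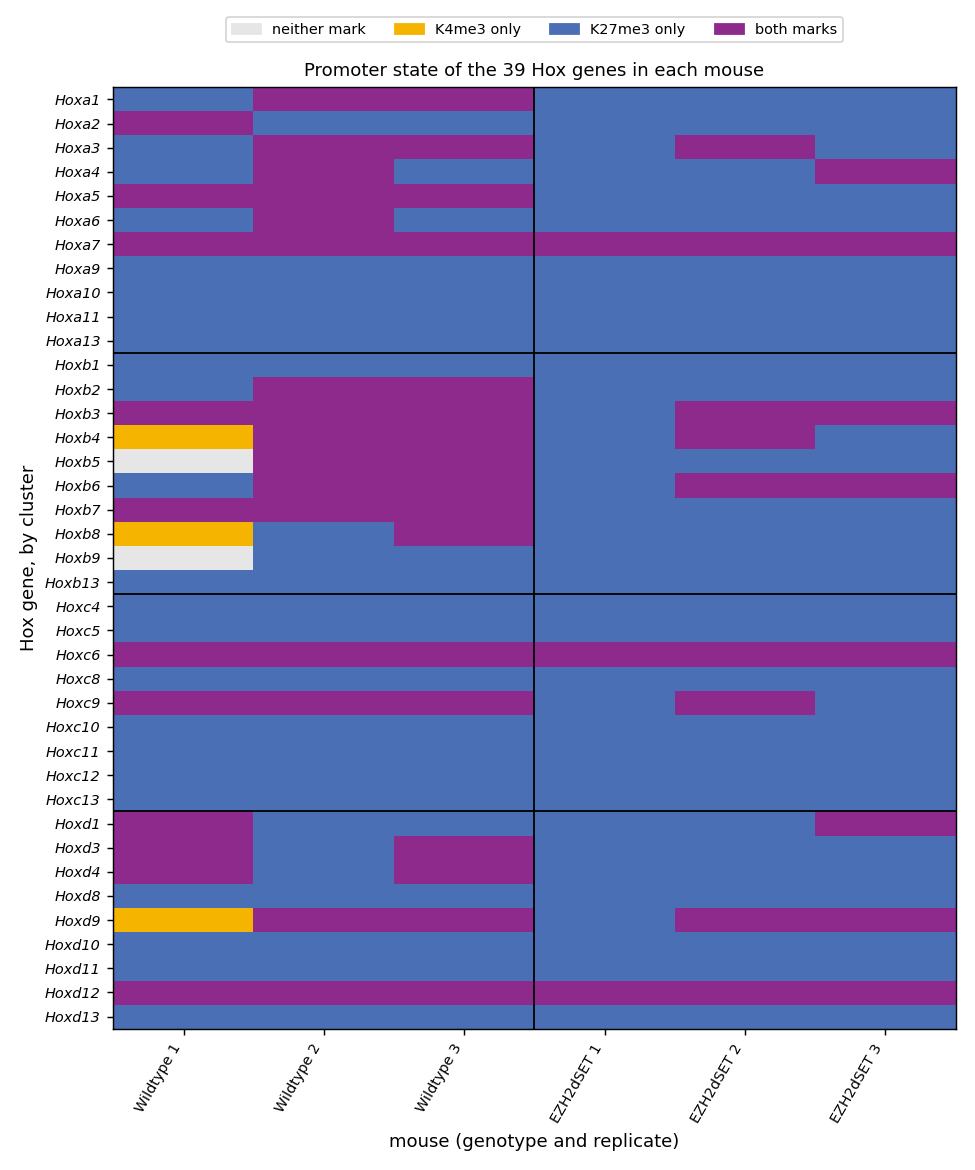
Promoter state of the 39 Hox genes in each mouse, by cluster, with genotypes separated by a vertical line. Most rows are K27me3 only in every mouse of both genotypes, and Wildtype mice have both marks at more genes than EZH2dSET mice.

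The genes that make and remove K27me3 were read next. Ezh2 had K4me3 only in all 6 mice, with 2892 to 3221 bp covered. Its promoter lies outside the deleted exons, so this does not check the deletion. Eed and Suz12, the core PRC2 partners, and Kdm6b, a K27 demethylase, also had K4me3 only in all 6. Of 12 genes of the PRC2 and demethylase list, 10 had K4me3 only in all 6 mice. Ezh1 was among the remaining 2, with K27me3 over 353 bp in Wildtype mouse 2. Kdm6a is on the X chromosome and was not tested. Of 29 acinar genes, 21 had K4me3 only in all 6 mice and none changed, where 0.255% of all genes did. All 7 acinar genes with K27me3 had it in Wildtype mouse 2 and in none of the other 5 mice, among them Ptf1a, the acinar transcription factor.

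Of the genes named in the study, a few held 1 state in all mice. Cdkn2a, which encodes the p16 and p19 cell cycle inhibitors, had both marks in all 6 mice, with K27me3 over 9927 to 12002 bp of 12002 bp. Nfatc1, a transcription factor, and Ptgs2, the inducible cyclooxygenase, had K4me3 only in all 6. Sox9, a duct transcription factor, had both marks in Wildtype mouse 2 and K4me3 only in the other 5. Maf, a transcription factor, had K4me3 in all 6 mice. K27me3 at Maf was absent in Wildtype mice 1 and 3 and covered 713, 738 and 1289 bp in EZH2dSET mice, but it covered 3406 bp in Wildtype mouse 2. The class I antigen genes H2-Q6 and H2-Q7 had both marks in Wildtype mouse 2 and in no other of the 6 mice. Colec12 and Cd1d1 had no constant state in at least 1 genotype.

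Leaving out any mouse relaxes the rule and raises the counts. Without Wildtype mouse 1, 76 of the 20807 genes tested gained K27me3, 39 lost it, 34 gained K4me3 and 16 lost it. Without Wildtype mouse 2, which stood apart, 126 genes (0.606%) gained K27me3 and 41 (0.197%) lost it, while 24 (0.115%) gained K4me3 and 32 (0.154%) lost it. These include the 53 by construction. The genes added to the K27me3 gains included Irx3, a homeobox factor, Wnt5a, a Wnt ligand, Drd1, a dopamine receptor, Ccl11, the eotaxin chemokine, and Nanog, a pluripotency factor. Drd1 had no K27me3 in Wildtype mice 1 and 3, 6926 bp in Wildtype mouse 2 and 6926, 4816 and 5423 bp in EZH2dSET mice. Irx3 had 0, 6153 and 0 bp in Wildtype mice and 799, 1010 and 1359 bp in EZH2dSET mice. At these 5 genes the coverage in Wildtype mouse 2 was at or above that of every EZH2dSET mouse.

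Sensory receptors were among the K27me3 losses and gains without Wildtype mouse 2. Olfactory receptors, 5.42% of all genes tested, were 15 of the 41 losses (36.6%, against 27.7% of the 1339 genes that held K27me3 in 1 constant state in Wildtype mice 1 and 3) and 8 of the 126 gains (6.35%), and 4 losses (9.76%) were vomeronasal receptor genes, which are 1.57% of all genes tested and 4.78% of those 1339. Npy2r, a neuropeptide Y receptor, had 5723, 0 and 6125 bp in Wildtype mice and 0 bp in each EZH2dSET mouse. Of the 24 K4me3 gains, 1 was in the T and B lymphocyte list, Pax5, a B cell transcription factor. It had 0, 10956 and 0 bp in Wildtype mice and 501, 900 and 968 bp in EZH2dSET mice. Among K4me3 losses were Hoxd3 and Hoxd4, Wt1 and Sim2, developmental transcription factors, Cdkn1c, a cell cycle inhibitor, and Bmp6, a growth factor. Wt1 had 1252, 0 and 659 bp in Wildtype mice and 0 bp in EZH2dSET mice, and Hoxd3 had 1441, 0 and 1281 bp and 0 bp. Without this mouse, 4 of the 32 K4me3 losses (12.5%) were Hox genes, which are 0.187% of all genes tested, and 2 of the 4 were Hoxa5 and Hoxb7. The other 2, Hoxd3 and Hoxd4, are neighbors and may share the same K4me3 peaks.

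The number of genes in each state per mouse did not separate the genotypes when all 6 mice were used. Neither mark was found at 5801 ± 174 genes in Wildtype and 5635 ± 163 in EZH2dSET mice (SD, n = 3, exact permutation p = 0.3, two-sided, adjusted p = 1 over the 4 states). K27me3 only was found at 1868 ± 411 and 1924 ± 91.9 genes (exact permutation p = 0.9, adjusted p = 1). K4me3 only was found at 12026 ± 1394 and 12588 ± 94.0 genes (exact permutation p = 1, adjusted p = 1). Both marks were found at 1112 ± 1157 and 659 ± 90.0 genes (exact permutation p = 0.9, adjusted p = 1). Wildtype mouse 2 had 2442 genes with both marks, where the other 5 mice had 331 to 736. Without it, the genotypes did not overlap in 3 of the 4 states. Neither mark was found at 5945 and 5850 genes in Wildtype mice 1 and 3 and at 5765, 5453 and 5688 in EZH2dSET mice (exact permutation p = 0.2, two-sided, unadjusted). K4me3 only was found at 12983 and 12668 genes in Wildtype mice 1 and 3 and at 12637, 12648 and 12480 in EZH2dSET mice. K27me3 only was found at 1548 and 1725 genes and at 1845, 2025 and 1903. These last 2 states each gave an exact permutation p of 0.1 (two-sided, unadjusted), the smallest that 2 mice against 3 allow.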

How the data were processed

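Per the labels and the study's methods, the authors checked reads with FastQC, mapped them with Bowtie2 (mm10) and ran HOMER findPeaks in histone mode on each mouse with its own input. They deposited peak positions. The score column of the deposited files is 1 in every row and was not used. Replicates were not pooled. Depth is unknown, since no read counts were used here.

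Peaks were overlapped (at least 1 bp) with windows of 3 kb on either side of each TSS of autosomal protein-coding genes in GENCODE vM21. Coverage is the number of bp of these windows under peaks. The number of genes in a state was tested between genotypes by exact permutation over mice (two-sided) with Benjamini-Hochberg adjustment over the 4 states; the smallest p is 0.1. P-values measure the spread between mice. The code was tested on simulated data. Members and gene lists were chosen with earlier results of these data known. All 53 genes are named, as the rule for the comparison asks, and the largest changes are described in full. Genes added when Wildtype mouse 2 was left out, and those under the relaxed rule, were chosen after their values were seen. Promoter copies were searched with blastn 2.17.0 (95% identity, 80% of the length). Same-numbered mice deviated with correlations of 0.21, 0.25 and 0.06 for K4me3 and 0.08, -0.12 and -0.06 for K27me3. Mice of unlike number gave -0.24 to 0.15 for K4me3 and -0.20 to 0.18 for K27me3. For K4me3 these values do not settle whether the numbers pair the mice, and the main tests treated the mice as unpaired. Python 3.11.15, pandas 2.3.3 and scipy 1.17.1 were used. Input samples were not analyzed here, and some results are not reported here.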

Additional observations from a re-analysis of the deposited data

How the results depend on the processing

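The counts of changed genes among the 20807 tested moved with the rule. They are given in the order K27me3 gained, K27me3 lost, K4me3 gained and K4me3 lost (36, 1, 10 and 6 as reported). With 1 mouse left out, which relaxes the rule, they were 67 to 126, 5 to 41, 14 to 34 and 8 to 32, and with 2 of 3 mice they were 662, 292, 142 and 136. K27me3 losses numbered 3 with a 1 kb window, 4 with 5 kb, 10 with K27me3 read from 100 kb upstream, 2 with the 5′ end alone, 3 with peak lists cut to an equal number of widest peaks and 0 without promoters that have near-identical copies. K4me3 gains were 19 with K4me3 peaks of at least 1 kb, K4me3 losses were 14 with equal peak numbers, and K27me3 gains were 19 when no peak was allowed within 5 kb. The identity of the genes moved more: of the 36 K27me3 gains, 12 held with a 1 kb window, 19 with 5 kb, 16 with equal peak numbers and 1 with K27me3 read from 100 kb upstream. With stricter peak widths 3 of the 10 K4me3 gains and 1 of the 6 K4me3 losses held, and with equal peak numbers 3 and 2. Nutm2, Gabra5, Lypd9, Gpr83, Cntnap4, Slitrk6 and Zfp932 held in 7 of 8 settings, all but K27me3 read from 100 kb upstream, and no gene held in 8. Of these 8, the rule of 2 of 3 mice cannot end a call, and the stricter width removed no K27me3 peak. The counts with copies or neighbors removed, with a relaxed second mark and within 5 kb were added after seeing the data.

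The difference in genes per mouse (EZH2dSET minus Wildtype) changed sign for neither mark (-165 to 298) and K27me3 only (56 to -6) with equal peak numbers, for K27me3 only without Wildtype mouse 1 (-104) or 3 (-15.7), and without Wildtype mouse 2 for K4me3 only (563 to -237) and both marks (-453 to 212). With each mouse left out in turn they ran from -237 to 1041 for K4me3 only, from -104 to 288 for K27me3 only and from -844 to 212 for both marks. At Iqcf3 the change in coverage was -2.85 percentage points with K27me3 read from 100 kb upstream. The replicate number as a block gave p = 0.25 for neither mark and 1 for the other states by exact sign-flip tests, whose smallest p is 0.25, and changed no call.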
